A study of Arabidopsis thaliana with 6 samples.

Results

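The UDP-glycosyltransferases (UGTs) described here belong to the large plant family 1 of enzymes that move a sugar from a UDP-sugar donor to a small acceptor molecule. The members were the 60 Arabidopsis thaliana loci of a list drawn up by UGT name. Of these, 59 had values on the arrays, out of 32627 genes measured, and AT1G05675 was not measured. Where a locus had several features, the one with the highest mean log2 intensity was used. The list was proposed with results of this same comparison known, so all counts over its members are descriptions. Loci named below only to complete a run of neighbours or a substrate class were chosen after their values were seen. RefSeq gives a UGT name to 53 of the measured members. AT4G15550 is listed there as IAGLU, and AT4G36770, AT2G18570, AT2G36780, AT2G36770 and AT4G14090 carry no gene name and are called by locus.

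All plants carried 35S::SUP-GR in the Landsberg erecta (Ler) wild-type background. This transgene uses a constitutive viral promoter to make the zinc-finger protein SUPERMAN (SUP) joined to a steroid-binding receptor domain (GR), so it is not limited to the cells that normally make SUP. The fusion is generally held outside the nucleus until dexamethasone (DEX) is present. Plants were grown at 22 °C in continuous light. Inflorescences were dipped for 1 min in 10 µM DEX, read as a concentration from the labels, or in ethanol alone (Mock), with 0.015% of the wetting agent Silwet L-77 in both. Inflorescences with buds younger than stage 10 were taken 4 hours later, and 3 arrays were run for each group. DEX-treated plants without the transgene were not analysed here, so every difference includes any effect of DEX itself.

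Family 1 enzymes attach sugars to hormones, phenylpropanoids, flavonoids and foreign compounds. The conjugate is usually more soluble and less active than the free molecule, and many conjugates are stored in the vacuole. The numbered UGT groups are defined by sequence similarity, while the acceptor has to be found for each enzyme by assay, and neighbours within a group can use different acceptors. In flowers, the products include flavonol glycosides of petals and pollen, sinapate esters and conjugates of auxin and cytokinin.

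Array medians ranged from 74.2 to 77.3 intensity units, and the median gene had an intensity of 72.9. Arrays of the same group had Pearson correlations of log2 intensity from 0.978 to 0.983 across genes, which are not independent replicates. For arrays of different groups they ran from 0.975 to 0.981. The tissue was checked against 6 floral bud markers, all brighter than the median gene, with geometric means from 323 for LFY to 1700 for AP1 in Mock. Of the root hair markers, EXPA7, EXPA18 and RSL4 lay between 2.45 and 3.01 in Mock, while SHV2 was at 161. The mature pollen markers VGD1, PGA4 and DAF1 were at 379, 510 and 134 in Mock and at 264, 374 and 139 in DEX. The summed intensity of the 3 pollen markers spanned 944 to 1220 on Mock arrays and 646 to 1006 on DEX arrays, and that of the 3 tapetum markers 2184 to 2625 and 2275 to 2505. The 4 root hair markers summed to 138 to 236 on Mock arrays and 128.5 to 300.4 on DEX arrays. No marker passed the test described below, and the part of any of these cell types in the UGT values was not tested. Chloroplast and mitochondrial transcripts were low on Mock replicate 1, with median deviations of -0.52 and -0.48 on the log2 scale from each gene's mean. Between groups, 80 of 87 chloroplast genes and 92 of 107 mitochondrial genes were above 0, with median differences of 0.30 and 0.28 and none past the test, on the other side of 0 from the UGT median given below. The part of this shift in the UGT values was not tested. For SUP itself the log2 intensity was 8.79 ± 0.09 with Mock and 8.88 ± 0.07 after DEX (SD, n = 3). Its difference of 0.09 (SE 0.11) lay within the spread, and a transcript level does not show where the protein was.

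Setting DEX against Mock asks which UGT transcripts differ within hours of activating the fusion protein. None of the 59 UGT members passed the test (limma, adjusted p over all genes under 0.05), where 17 of 32627 genes, 0.0521%, did. Of those 17, 16 were lower in DEX (0.049% of all genes) and 1 was higher (0.00306%). The smallest adjusted p among the members was 0.18. The members with the widest differences were UGT73C1, UGT73C5 and UGT74E2, whose mean intensities in DEX were between 3.21 and 5.10 times below those in Mock. At an unadjusted p under 0.05, 10 members lay lower in DEX, where 5.92% of all genes did, and 2 higher, where 4.5% did. The rule was applied to this same contrast, so nothing is read from these shares.

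In 40 of 59 members, 67.8%, the mean was lower in DEX, against 49.1% of all genes and 51.3% of protein-coding genes. The median difference was -0.25 on the log2 scale, against 0.005 for all genes. This median depended on single arrays: it was -0.12 without DEX replicate 3 and -0.17 without DEX replicate 1. It was also -0.12 when 16 was added to each intensity, a step that damps differences of dim genes. The 6 floral bud markers were lower in DEX as well, with a median of -0.30 and none past the test; their summed intensity was 4761 to 5078 on Mock and 3837 to 4070 on DEX arrays. In whole inflorescences, fewer cells of a type and less RNA per cell cannot be told apart.

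The arrays of the 2 groups did not overlap for 14 members. DEX was lower in 11, where 9.2% of all genes showed this, and higher in 3, where 8.74% did. The 11 were UGT73C1, UGT74E2, UGT73B5, AT2G18570, UGT84A2, UGT72B1, UGT72B3, UGT73C5, UGT85A3, UGT74F1 and UGT85A2. The 3 were UGT74D1, UGT76E12 and UGT73C2. For the other 45 members the arrays overlapped.

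**Figure D1:**
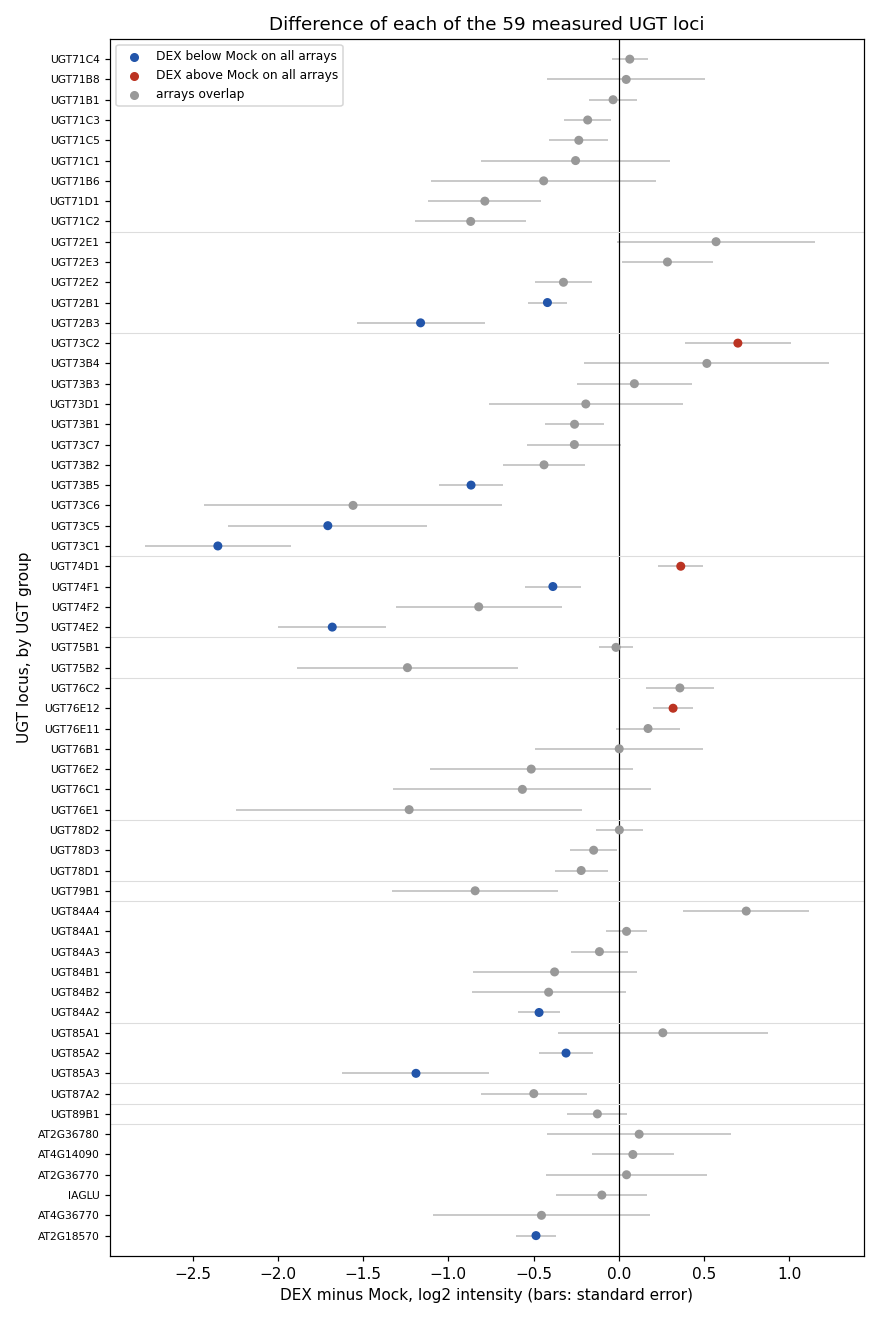
Differences between DEX and Mock for the 59 measured UGT loci, ordered by UGT group, with loci that RefSeq gives no UGT name at the bottom. The x axis is the log2 difference in intensity, points are estimates from 3 arrays in each group, bars are standard errors, and colours mark whether the arrays of the groups overlap. UGT73C1 lies farthest to the left at -2.35 and UGT84A4 farthest to the right at 0.75.

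Group 73, to which many stress-inducible UGTs belong, held the widest spread. UGT73C1, which can attach glucose to the hydroxyl group of cytokinins in vitro, was at intensities of 58.7, 49.0 and 27.6 on the Mock arrays, replicates 1 to 3. On the DEX arrays it was at 14.2, 6.57 and 6.40. Every DEX array lay below every Mock array, and all 6 values were dimmer than the median gene. The difference was -2.35 (SE 0.43; limma adjusted p = 0.18), with a 95% interval from the fit of -3.42 to -1.28. With 16 added to each intensity it was -1.27. Letting the prior for the variance depend on intensity (limma, trended and robust prior) put the gene past the threshold (adjusted p = 0.00904), as it did 1.32% of all genes and 1.06% in the lower direction, but under that prior not without Mock replicate 1 (adjusted p = 0.0675).

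UGT73C5, also called DOGT1, glucosylates the fungal toxin deoxynivalenol and inactivates brassinosteroids. It was at 311, 281 and 123 in Mock and at 81.4, 115 and 33.0 in DEX. The groups did not overlap, but Mock replicate 3 and DEX replicate 2 were close to each other. The difference was -1.71 (SE 0.58; limma adjusted p = 0.413). The interval ran from -3.16 to -0.26, and both groups spread, with SDs of 0.73 and 0.93 on the log2 scale.

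UGT73C1 and UGT73C5 lie at the ends of a run of 6 neighbouring UGT loci in the RefSeq annotation. The loci between them did not share a direction. UGT73C6, which glucosylates flavonols, was at 47.8, 19.0 and 7.83 in Mock and 13.8, 7.73 and 2.60 in DEX. Its arrays overlapped, and its difference was -1.56 (SE 0.88; limma adjusted p = 0.603). UGT73C2 was dim throughout, at 2.84, 2.43 and 1.31 in Mock and 3.33, 3.03 and 3.83 in DEX. It was higher on all DEX arrays, with a difference of 0.70 (SE 0.31), which shrank to 0.09 with 16 added. AT2G36770, at geometric means of 6.61 and 6.83, and AT2G36780, at 2.49 and 2.71, differed by 0.05 (SE 0.47) and 0.12 (SE 0.54). The probes that separate these close copies are not described in the sources used here, so signal shared between neighbours was not tested.

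UGT73B5, a redox- and pathogen-responsive member, was at 68.0, 45.9 and 49.8 in Mock and at 33.4, 27.7 and 27.7 in DEX. The groups did not overlap, and the difference was -0.87 (SE 0.19; limma adjusted p = 0.242). Its neighbour UGT73B4, the only other member of its run, was dim and differed by 0.52 (SE 0.72). A further feature for UGT73B4 differed by -0.49 (SE 0.765), so the direction of this gene depended on the feature. UGT73B1, UGT73B2 and UGT73B3, which form another run, differed by -0.26 (SE 0.18), -0.44 (SE 0.24) and 0.09 (SE 0.34). Of the 11 loci that RefSeq names in group 73, 8 were below 0 and none passed. AT2G36770 and AT2G36780, which lie in the run with the UGT73C loci, were not counted, and both were above 0.

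**Figure D2:**
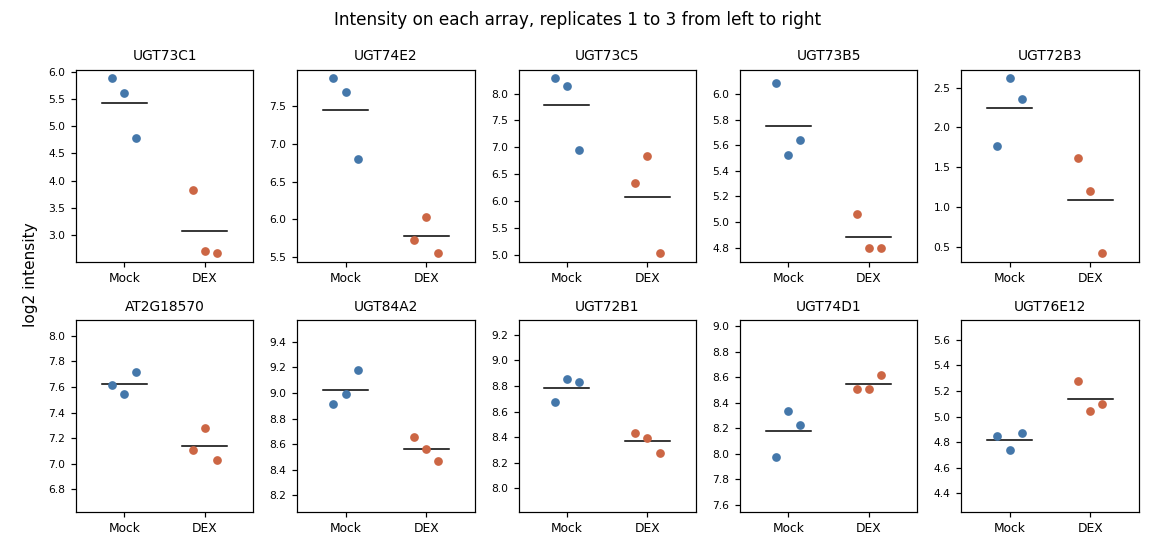
Intensity on each array for 10 UGT loci, the 8 lower and the first 2 higher in DEX by unadjusted p. The y axis is log2 intensity on a scale set for each panel, points are the 3 arrays of a group with replicates 1 to 3 from left to right, and lines are group means. In UGT73C1, UGT74E2 and UGT73C5 the Mock array nearest to the DEX arrays is replicate 3.

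Auxin conjugation is covered by 4 members. UGT74E2 glucosylates indole-3-butyric acid, an auxin precursor, and is known for its part in shoot form and stress responses. It was at 234, 206 and 111 in Mock and at 53.0, 65.5 and 47.0 in DEX. The lowest Mock array was still well above the highest DEX array. The difference was -1.68 (SE 0.32; limma adjusted p = 0.189), with an interval of -2.47 to -0.90, and -1.44 with 16 added. It passed with the trended and robust prior (limma adjusted p = 0.00389), also with any array left out (adjusted p from 0.000786 to 0.0278). It also passed when genes below the median intensity were left out (limma adjusted p = 0.0195), where 1.73% of genes did and 1.35% in the lower direction. With the default prior it did not pass without any 1 of the arrays (adjusted p from 0.178 to 0.391). Its neighbour AT1G05675 was the locus that was not measured.

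UGT74D1, which glucosylates the oxidised form of indole-3-acetic acid, differed in the other direction. It was at 252, 322 and 300.1 in Mock and at 363, 365 and 392 in DEX. All DEX arrays were higher, with a difference of 0.36 (SE 0.13; limma adjusted p = 0.431) and an interval of 0.04 to 0.69. UGT84B1, which makes the glucose ester of indole-3-acetic acid, and IAGLU, also placed in the auxin class, overlapped between groups. UGT84B1 was dim, at 11.1, 8.82 and 4.10 in Mock and 4.19, 4.75 and 9.22 in DEX, and differed by -0.38 (SE 0.48). IAGLU was at 56.2, 41.7 and 32.1 in Mock and 40.4, 48.5 and 31.3 in DEX, with a difference of -0.10 (SE 0.27) and an interval of -0.76 to 0.56. Of the 4 loci, 3 were below 0, with 1 interval wholly below 0 and 1 wholly above it.

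Cytokinins are conjugated by UGT76C1 and UGT76C2 at a ring nitrogen and by UGT85A1 and UGT73C1 at a hydroxyl group. UGT76C2 was at 38.6, 34.3 and 25.7 in Mock and at 39.2, 37.5 and 48.9 in DEX. The arrays overlapped, and the difference was 0.36 (SE 0.20; limma adjusted p = 0.6). UGT76C1, its neighbour, was at 17.7, 5.15 and 9.62 in Mock and 5.0, 17.1 and 3.16 in DEX, with a difference of -0.57 (SE 0.76). UGT85A1 lay between 1.92 and 7.04 on all 6 arrays and differed by 0.26 (SE 0.62). The 4 members placed in the cytokinin class were all dimmer than the median gene, and apart from UGT73C1 none separated the groups. Each member was counted in a single class, and UGT73C5 was counted under brassinosteroids.

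Salicylate and its relatives are acceptors of 4 members. UGT74F1 makes salicylate glucoside and was at 39.3, 44.8 and 54.8 in Mock and 32.4, 34.3 and 38.9 in DEX. The groups touched without overlapping, and the difference was -0.39 (SE 0.16; limma adjusted p = 0.498). UGT74F2, a neighbour that makes the salicylate glucose ester, was at 8.93, 4.72 and 16.3 in Mock and 6.96, 4.27 and 4.17 in DEX. It differed by -0.82 (SE 0.49), and by -0.28 with 16 added. UGT71C3, which glucosylates methyl salicylate, differed by -0.18 (SE 0.14). UGT76B1, which acts on isoleucic acid and salicylate, was at geometric means of 10.9 in both groups, with a difference of 0.00 and a wide interval of -1.23 to 1.23. None of the 4 passed.

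The abscisate glucosyltransferases showed no separation of the groups. UGT71C5 was at 242, 209 and 198 in Mock and 222, 178 and 155 in DEX. It differed by -0.24 (SE 0.17), while UGT71B6 and UGT71B8, both dim, differed by -0.44 (SE 0.66) and 0.04 (SE 0.47).

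**Figure D3:**
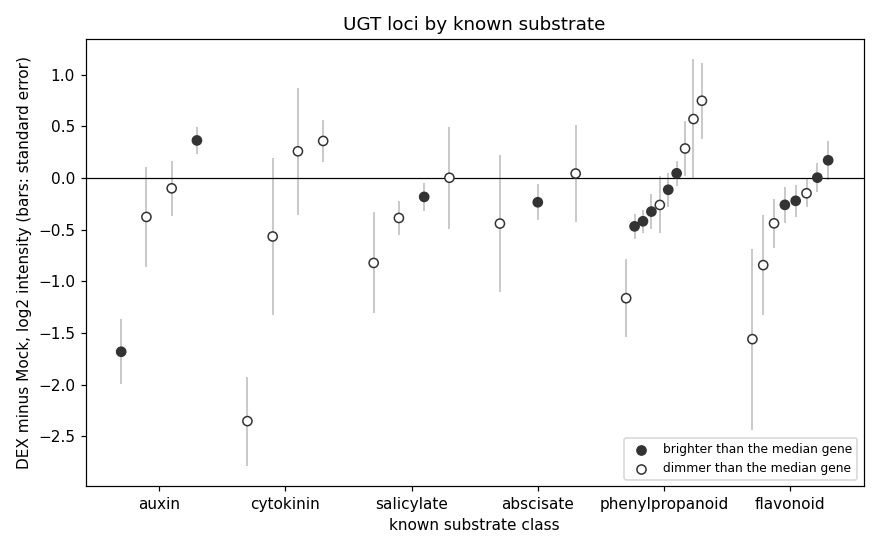
Differences of UGT loci grouped by known substrate. The y axis is the log2 difference in intensity, DEX minus Mock, with standard errors, and filled points are loci brighter than the median gene. Each of the 6 classes drawn (auxin, cytokinin, salicylate, abscisate, phenylpropanoid and flavonoid) holds loci on both sides of 0, and the lowest points among them are UGT74E2 for auxin at -1.68 and UGT73C1 for cytokinin at -2.35.

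Phenylpropanoids are the acceptors of 10 members, of which 6 were below 0 and 3 did not overlap between groups, all lower in DEX, where 9.2% of all genes showed this. UGT84A2, known as BRIGHT TRICHOMES 1, makes sinapoylglucose. It was at 481, 509 and 579 in Mock and at 403, 377 and 353 in DEX. The groups were apart and the spread was small, with a difference of -0.47 (SE 0.12; limma adjusted p = 0.308) and an interval of -0.77 to -0.16. UGT72B1, which conjugates chlorinated phenols and anilines and also affects lignification, was at 408, 464 and 455 in Mock and 345, 337 and 309.9 in DEX. Its difference was -0.42 (SE 0.11; limma adjusted p = 0.316).

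UGT72B3, a close relative of UGT72B1, was near the floor of the scale, at 3.40, 6.14 and 5.11 in Mock and 3.07, 2.31 and 1.34 in DEX. Its difference of -1.16 (SE 0.38) became -0.19 with 16 added. The hydroxycinnamate glucosyltransferases UGT84A1, UGT84A3 and UGT84A4 form a run of neighbours. UGT84A1 was at 262, 274 and 228 in Mock and 256, 278 and 253 in DEX. Its arrays overlapped, and its difference was 0.05 (SE 0.12). UGT84A3 was at 364, 376 and 300.6 in Mock and 359, 338 and 268 in DEX, and differed by -0.11 (SE 0.17). UGT84A4 was dim, at 2.88, 4.00 and 4.82 in Mock and 10.6, 4.76 and 5.21 in DEX. DEX replicate 1 stood above the rest, the groups overlapped by a little, and the difference was 0.75 (SE 0.37), or 0.19 with 16 added.

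Monolignols and their aldehydes are glucosylated by the 3 UGT72E enzymes. UGT72E2, which glucosylates coniferyl and sinapyl alcohol, was at 289, 291 and 231 in Mock and 207, 254 and 188 in DEX. The arrays overlapped and the difference was -0.33 (SE 0.17; limma adjusted p = 0.576). UGT72E3 was at 67.3, 70.6 and 39.3 in Mock and 59.0, 72.7 and 78.6 after DEX, with a difference of 0.29 (SE 0.27). UGT72E1 differed by 0.57 (SE 0.58) at dim intensities. Signs differed within the trio, and no interval excluded 0.

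Among the 8 members counted as flavonoid glycosyltransferases, no locus separated the groups, although 6 were below 0 with a median of -0.24. UGT78D1, which adds rhamnose to flavonols, was bright at 1091, 1098 and 922 in Mock and 921, 1005 and 754 in DEX. It differed by -0.22 (SE 0.16), with an interval of -0.61 to 0.16. UGT78D2, which adds glucose to flavonols and anthocyanidins at the same position, was at 785, 982 and 947 in Mock and 824, 911 and 978 in DEX. Its arrays overlapped fully, with a difference of 0.00 (SE 0.14) and an interval of -0.34 to 0.35. UGT78D3, the flavonol arabinosyltransferase, differed by -0.15 (SE 0.14).

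UGT79B1, which extends anthocyanins with xylose, was at 43.5, 27.3 and 38.4 in Mock and 30.9, 26.7 and 9.59 in DEX. The groups overlapped, DEX replicate 3 was far below the other arrays, and the difference was -0.84 (SE 0.49; limma adjusted p = 0.613). Without that array it was -0.32. UGT76E11, a flavonoid glucosyltransferase, differed by 0.17 (SE 0.19).

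Among the loci not counted in these substrate classes, AT2G18570 was at 196, 187 and 210.4 in Mock and 138, 156 and 131 in DEX. All DEX arrays were lower, with a difference of -0.49 (SE 0.12; limma adjusted p = 0.279). AT4G14090, a flavonoid locus in the naming rule, has no gene name in RefSeq and so was not counted in that class. It was at 88.4, 81.6 and 70.5 in Mock and 109.4, 89.6 and 61.5 in DEX. Its arrays overlapped, and its difference was 0.08 (SE 0.24). UGT76E12 was at 28.9, 26.6 and 29.3 in Mock and 38.8, 32.9 and 34.2 in DEX. All DEX arrays were higher, by 0.32 (SE 0.12; limma adjusted p = 0.432). UGT75B1, found with the callose synthase complex of the cell plate, was between 408 and 447 on all arrays, with a difference of -0.02 (SE 0.10). UGT71C4 differed by 0.06 (SE 0.11) and UGT71B1 by -0.03 (SE 0.14).

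Group 85 held 2 further loci whose arrays did not overlap. UGT85A3 was at 27.1, 26.1 and 29.5 in Mock and at 6.28, 20.2 and 13.9 in DEX. The Mock arrays were close together and the DEX arrays spread, with a difference of -1.19 (SE 0.43; limma adjusted p = 0.432), or -0.59 with 16 added. UGT85A2 was at 142, 165 and 146 in Mock and 141, 124 and 103 in DEX, so that its nearest arrays almost met. It differed by -0.31 (SE 0.16), and a further feature of the locus by -0.50 (SE 0.28).

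Dim members as a set spread more within groups than bright ones, with exceptions. Bright UGT73C5 had SDs of 0.73 in Mock and 0.93 in DEX, and dim UGT76E12 had 0.07 and 0.12. The 22 members brighter than the median gene had a median SD within groups of 0.18 on the log2 scale, and the 37 dimmer ones 0.66. Of the bright members, 16 were below 0 and their median was -0.20. Of the dim members, 24 were below 0, and their median of -0.38 became -0.12 with 16 added.

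**Figure D4:**
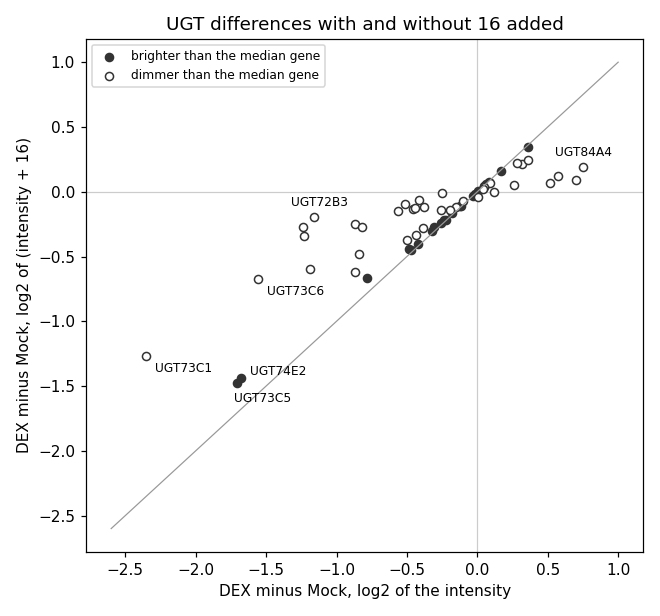
Difference of each UGT locus on the log2 scale, DEX minus Mock, from the intensity as deposited (x axis) and after 16 was added to it (y axis), with the line of equality. Filled points are loci brighter than the median gene. With 16 added, UGT74E2 lies at -1.44 and UGT73C5 at -1.48, UGT73C1 at -1.27 and UGT72B3 at -0.19.

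The pathways that supply the acceptors were read from the same fit. None of the 15 flavonoid pathway genes passed, and 10 were below 0 with a median of -0.12. The flavonoid hydroxylase gene TT7 was at 1352, 1430 and 1666 in Mock and 834, 732 and 574 in DEX. The groups were well apart, with a difference of -1.07 (SE 0.18; limma adjusted p = 0.153). MYB11, a regulator of flavonol synthesis, differed by -1.09 (SE 0.36), its relative MYB111 by 0.11 (SE 0.15) and TTG1 by 0.11 (SE 0.16). Chalcone synthase, listed as TT4, which opens the pathway, differed by 0.01 (SE 0.11); it was named after its value was seen.

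Of 20 phenylpropanoid genes, 10 were below 0, none passed, and the median was -0.03. The methyltransferase gene OMT1 was at geometric means of 1620 and 1010, a difference of -0.68 (SE 0.12; limma adjusted p = 0.175), and the alcohol dehydrogenase gene ATCAD4 differed by -0.44 (SE 0.12). FAH1, a hydroxylase on the way to sinapate, differed by 0.22 (SE 0.14), on the other side of 0 from UGT84A2, which uses sinapate; the contrast between them was not tested. PAL3, a phenylalanine ammonia-lyase gene, differed by 0.18 (SE 0.11).

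Of 10 salicylate genes, 6 were below 0 and none passed. EDS5, a transporter in salicylate synthesis, differed by -0.53 (SE 0.12) and AT4G10500, annotated as DMR6-LIKE OXYGENASE 1, by -1.38 (SE 0.35), both at dim intensities. NPR1, a salicylate receptor, differed by 0.41 (SE 0.17) and the isochorismate synthase gene ICS2 by 1.09 (SE 0.48). The 8 cytokinin synthesis genes had a median of -0.01, and none passed. The isopentenyltransferase genes IPT5, IPT2 and IPT3 differed by -0.68 (SE 0.32), -0.05 (SE 0.16) and 0.40 (SE 0.27), and CYP735A2, a cytokinin hydroxylase gene, by 0.47 (SE 0.31).

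Among 7 further genes of auxin conjugation and inactivation, none passed and the median was -0.01. GH3.17, which joins auxin to glutamate, was at 79.9, 72.5 and 86.6 in Mock and 31.5, 28.6 and 21.1 in DEX. All DEX arrays were lower, with a difference of -1.57 (SE 0.18; limma adjusted p = 0.093). The auxin methyltransferase gene IAMT1 differed by -0.68 (SE 0.33), and the auxin conjugate hydrolase genes ILL5 and ILL1 by 0.41 (SE 0.31) and 0.09 (SE 0.10).

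UGTs are often induced together with glutathione transferases by foreign compounds. The 16 detoxification genes measured alongside were even, with 8 below 0, none past the test and a median of -0.03. The transferase genes GSTU25 and GSTU1 differed by -0.93 (SE 0.29) and 0.79 (SE 0.20), GSTU4 by 0.77 (SE 0.27) and the conjugate transporter gene ABCC3 by -0.52 (SE 0.17). On Mock replicate 1 the median deviation of this list was 0.32, against -0.16 to 0.15 on the other arrays. UGT73C1, UGT74E2, UGT73C5 and UGT73B5 were also highest on that array. Whether the variation is shared was not tested.

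**Figure D5:**
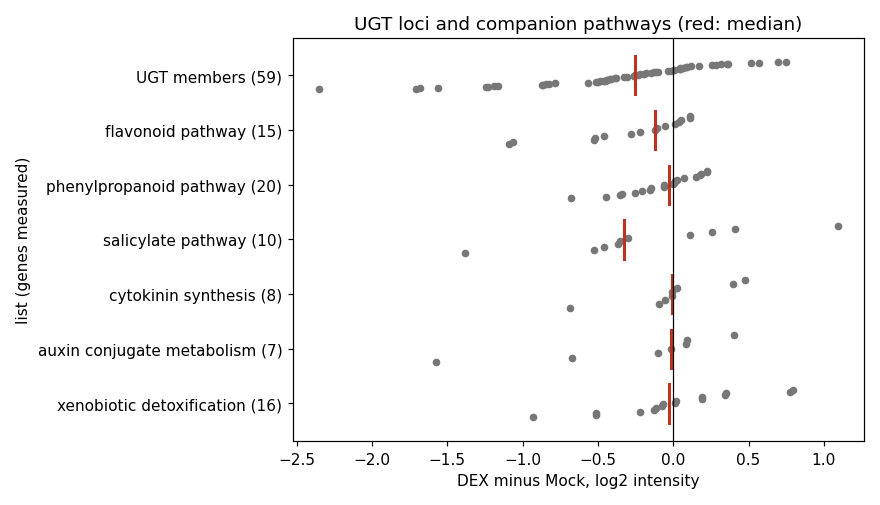
Differences of the UGT loci and of genes in companion pathways. The x axis is the log2 difference in intensity, DEX minus Mock, each point is a gene, red bars are medians and the number of genes measured stands beside each name. The medians of the companion lists lie between -0.33 for the salicylate pathway and -0.01 for cytokinin synthesis and auxin conjugation, and that of the UGT loci is -0.25.

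The list leaves out 8 measured loci that RefSeq names as UGTs of groups 71 to 91, with the UGT80 and UGT81 loci not counted. Loci without a UGT name in RefSeq were not looked for. Their median difference was -0.26, 5 were below 0 and none passed. UGT71B5, dim at geometric means of 3.20 and 2.15, differed by -0.57 (SE 0.18), UGT76D1 by -0.29 (SE 0.19) and UGT85A7 by -0.61 (SE 0.43). UGT79B6 was at 215 and 273 and was higher on all DEX arrays, with a difference of 0.34 (SE 0.11; limma adjusted p = 0.39), while UGT85A5 and UGT85A4 differed by 0.20 (SE 0.42) and 0.00 (SE 0.19). Of the loci not counted, UGT80A2 and UGT80B1 differed by 0.02 (SE 0.12) and -0.09 (SE 0.12). UGT81A1 was higher on all DEX arrays, by 0.28 (SE 0.14).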

How the data were processed

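The authors deposited linear intensity values made with RMA from 1-colour (Cy3) NimbleGen arrays, per the submitters' processing notes and the labels' protocols. The sources used here do not give the RMA version, its background step or the probe design. Of 39640 feature rows, 37118 held values. Values were put on the log2 scale without a pseudocount, and the feature with the highest mean log2 intensity stood for each of 3602 loci with several. Names came from RefSeq (TAIR10.1), which matched 31993 of 32627 genes.

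DEX and Mock (3 arrays each) were compared with limma 3.58.1 in R 4.3.3 (lmFit, eBayes with the default prior, two-sided), adjusted by Benjamini-Hochberg over all genes, threshold 0.05. Differences have Mock subtracted from DEX; SE is the fit's standard error, and intervals are at 95%. The fit was tested on simulated data with effects planted only in genes brighter than the median gene, so recovery of effects in dim genes was not tested. Members and lists were chosen with earlier results of these data known. The naming rule took 8 members in each direction by unadjusted p, plus loci of known hormone, phenylpropanoid and flavonoid substrates, up to 2 genes per direction in each of the companion lists and up to 3 of the other UGTs. Alternatives were a replicate block, filters on dim genes, quantile and median scaling, a trended and robust prior, 16 added to each intensity, means over features and leaving out each array; the block and the left-out arrays under the trended and robust prior were added after the data were seen. Precision is limited by having 3 arrays in each group. The submitters describe 3 independent sets without saying what was independent, and p-values cover only the variation among these 6 arrays, which may be technical.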

Additional observations from a re-analysis of the deposited data

How the results depend on the processing

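The count of 17 genes called, of which no UGT member (12 members at an unadjusted p under 0.05), moved with the settings. It was 105 of 24470 without the dimmest 25% of genes and 282 of 16314, 1.73%, without genes below the median intensity. Of all 32627 genes it was 204, 0.625%, with 16 added to each intensity and 431, 1.32%, with the trended and robust prior. The matching counts of UGT members were 0 of 49, 1 of 22, 0 of 59 and 2 of 59. With the replicate block both counts were 0 in limma, with 3513 genes and 13 members at an unadjusted p under 0.05. Deviations of same-numbered Mock and DEX arrays correlated at 0.028, 0.063 and 0.056, so the numbers were not taken as pairs, although each array correlated best with its own number. With the block and the trended and robust prior, chosen after seeing the data, 750 of 32627 genes and 4 of 59 members passed. The 4 were UGT73C1, UGT74E2, UGT73C5 and UGT84A2. For UGT73C5 the block took the SE from 0.58 to 0.19 with the default prior (limma adjusted p = 0.299), and its adjusted p was 0.00014 with both. Leaving out any 1 array gave 0 genes and 0 members with the default prior (2806 to 3372 genes and 8 to 13 members at an unadjusted p under 0.05). With the trended and robust prior, also added after seeing the data, it gave 244, 314 and 260 genes without Mock replicates 1, 2 and 3, and 303, 226 and 307 without DEX replicates 1, 2 and 3. UGT members called there numbered 1 of 59 without Mock replicate 1 and 2 of 59 otherwise, with 32627 genes tested each time. The median difference of the members, -0.25, was -0.12 with 16 added and -0.30 to -0.12 with an array left out, and 39 to 46 of 59 members were then below 0. Of 651 values of the 32 named members under the alternatives, 32 had a sign other than the reported one, in 9 members. Of these, 0 had a reported difference above 1 SE. Many of the 651 signs could not change. The block, the filters, the trended and robust prior and the means over features left the differences of these members as reported. Each left-out array gave the same differences under both priors, so those values were counted again. The cause of the changes with the settings was not tested, except that the filters test fewer genes and a left-out array leaves fewer samples. Signal near the floor limits what dim members show.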

Other observations

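DEX replicate 3 was the lowest of the 6 arrays for 24 of 59 UGT members, 40.7%, against 16.1% of all genes, and DEX replicate 1 for 14 members, 23.7%, against 16.6%. Mock replicates 1 and 2 were the highest array for 17 and 15 members, 28.8% and 25.4%, against 19.4% and 15.4% of all genes. Over all genes, Mock replicate 1 was also the lowest array most often, for 21.0%. These shares were looked for after the data were seen and were not tested.

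Within Mock, replicate 3 was the lowest array for 26 members, 44.1%, against 31.6% of all genes. UGT71D1, chosen after its values were seen, showed this too, at 161, 118 and 80.7 in Mock and 49.5, 89.5 and 67.2 in DEX. Without Mock replicate 3 the differences of UGT73C1, UGT74E2 and UGT73C5 were -2.67, -2.01 and -2.13, and without Mock replicate 1 they were -2.13, -1.47 and -1.46. UGT87A2, an enzyme known to affect flowering time, was steady in Mock at 68.8, 66.0 and 67.8 and spread in DEX at 48.8, 72.2 and 31.0.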
